A study of Mus musculus with 4 samples.

Results

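Of the 15713 genes counted in mouse hippocampus, 10 were examined here as activity-induced immediate early genes: Fos, Fosb, Junb, Egr1, Egr2, Arc, Npas4, Nr4a1, Homer1 and Dusp1. They were taken by gene symbol, and all 10 had a row in the table. RNA was sequenced from 4 hippocampal libraries of C57BL/6 mice, an inbred laboratory strain, aged 11 to 12 weeks. The 2 control libraries came from untreated mice and the 2 ATO libraries from mice given 5000 ppb ATO as a developmental exposure. The labels do not expand ATO, the series title speaks of arsenic-exposed offspring, and neither states the sex of the mice or the route of exposure. The design asks how the hippocampal transcriptomes of the 2 groups differ.

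Immediate early genes are transcribed within minutes of synaptic activity, without new protein synthesis. Calcium entering through NMDA receptors and L-type channels activates kinases of the ERK, CaMK and PKA pathways, which act on transcription factors such as CREB, SRF and MEF2 already bound near these genes. In the hippocampus their transcripts mark recently active neurons, and several of them are needed for lasting synaptic change. Their messenger RNAs are short-lived.

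Library totals ran from 14832214 to 17251032 counts, so that 1 count was worth 0.0580 to 0.0674 CPM (counts scaled to a common library size). Neuronal identity was checked with 5 general neuronal, 6 CA1, 6 CA3 and 10 dentate gyrus markers, all of which were counted. The 5 general neuronal markers, not all of them found in every neuron, summed to 5390 and 5317 normalised CPM in control. They summed to 5094 and 5251 in ATO. The libraries differed by group in another tissue: all 18 choroid plexus markers rose in ATO, and their sum went from 189 and 259.8 CPM in control to 3407 and 4259 in ATO. Its part in the results below was not tested. In bulk tissue, fewer cells of a type and less RNA per cell cannot be told apart. Nothing in the labels says whether the libraries of a group came from separate litters, so the p-values reflect only how these particular libraries vary, which may be technical.

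Sequence from the 250 bases before a RefSeq transcription start is shown for 4 of the genes. The CREB binding element of these promoters is the best known link from activity to their transcription. The sequences are from RefSeq on GRCm38.p6, whose promoter table held 8 of the 10 genes, without Arc and Egr1. Each runs 5′ to 3′ on the gene's own strand, and capitals mark TGACG, the core of the CREB element, or CGTCA where it lies on the other strand. The windows are chr13:93303507-93303756 on the plus strand for Homer1, chr12:85473640-85473889 on the plus strand for Fos and chr15:101266596-101266845 on the plus strand for Nr4a1. For Npas4 the annotation places the whole window in an exon, and 30 bases at chr19:4990129-4990158 on the minus strand are shown. These lie downstream of the start of its annotated coding transcript, at 4990316, so they are not sequence before that start.
Homer1: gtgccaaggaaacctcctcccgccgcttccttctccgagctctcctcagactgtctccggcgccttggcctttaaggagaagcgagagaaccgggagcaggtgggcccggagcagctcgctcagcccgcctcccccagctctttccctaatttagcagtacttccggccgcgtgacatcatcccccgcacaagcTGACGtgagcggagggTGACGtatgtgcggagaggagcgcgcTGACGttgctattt
Fos: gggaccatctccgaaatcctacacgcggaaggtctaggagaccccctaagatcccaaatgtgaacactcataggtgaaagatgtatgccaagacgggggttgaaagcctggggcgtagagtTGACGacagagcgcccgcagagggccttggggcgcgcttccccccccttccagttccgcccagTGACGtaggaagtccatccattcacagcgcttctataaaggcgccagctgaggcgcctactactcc
Nr4a1: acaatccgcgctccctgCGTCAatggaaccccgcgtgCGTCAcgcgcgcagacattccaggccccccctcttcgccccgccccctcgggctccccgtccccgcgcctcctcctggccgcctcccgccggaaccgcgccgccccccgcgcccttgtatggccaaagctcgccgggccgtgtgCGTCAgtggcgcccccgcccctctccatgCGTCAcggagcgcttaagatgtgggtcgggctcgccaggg
Npas4: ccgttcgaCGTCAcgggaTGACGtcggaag

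All 8 genes with a window held TGACG on either strand in at least 1 window of 250 bases, against 17.8% of all 32851 windows and 19.8% of all genes in the table. Homer1 and Egr2 also had windows without it, and the Npas4 window is the exonic one described above. Nr4a1 had 4 such cores, Homer1 and Dusp1 had 3, and Fos, Npas4 and Egr2 had 2 in their fullest windows. The palindrome TGACGTCA, which holds the TGACG core on both strands, was found only in Dusp1 among the 8, and in 1.55% of all windows. It accounts for 2 of the 3 cores counted in Dusp1, which overlap each other. The CArG box, the binding element of SRF, was found in Egr2, and in 1.47% of all windows. The AP-1 motif TGANTCA was found in none of the 8 and in 6.75% of all windows, and the EGR motif GCGNGGGCG was found in Fosb and Nr4a1 and in 4.70% of all windows. These matches describe the letters of the windows and do not show that a factor is bound.

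Per unit of transcript length, Arc was the most abundant of the 10 genes, with a mean of 45.9 FPKM over the 4 libraries (lowest 26.7, highest 63.01). FPKM are counts scaled by transcript length and library size, and these are the deposited values. Junb followed with 28.4, Egr1 with 28.3, Nr4a1 with 20.4 and Homer1 with 12.5 FPKM. Fos was at 7.04, Dusp1 at 5.57, Npas4 at 5.18, Fosb at 2.62 and Egr2 at 1.20 FPKM. The order is coarse, because neighbours in it had overlapping ranges over the 4 libraries, except between Nr4a1 and Homer1 and between Fosb and Egr2. All 10 genes were over 1 CPM in every library, and the test below lost no member to its filter on low counts. Egr2 was lost only in an alternative fit with a minimum mean of 5 CPM.

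Of the 10 genes, only Homer1 passed the test of ATO against control, and it was higher in ATO. The quasi-likelihood test of edgeR was used, with p-values adjusted by Benjamini and Hochberg's method over all 15713 genes, and passing means an adjusted p under 0.05. By this rule 3.73% of all genes passed, 2.87% higher and 0.859% lower in ATO, and 1 of 10 higher and 0 of 10 lower is near that background. Without adjustment, 3 of the 10 had a p under 0.05, against 18.1% of all genes, and these were Homer1, Npas4 and Arc. The median log2 fold change of the 10 was 0.02, against 0.00 over all genes, with 5 genes above 0 and 5 below. The groups did not overlap for 2 of the 10, Homer1 and Npas4, while 48.1% of all genes had groups that did not overlap. With 2 libraries in each group an exact two-sided permutation test of a single gene cannot give a p below 0.333.

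**Figure D1:**
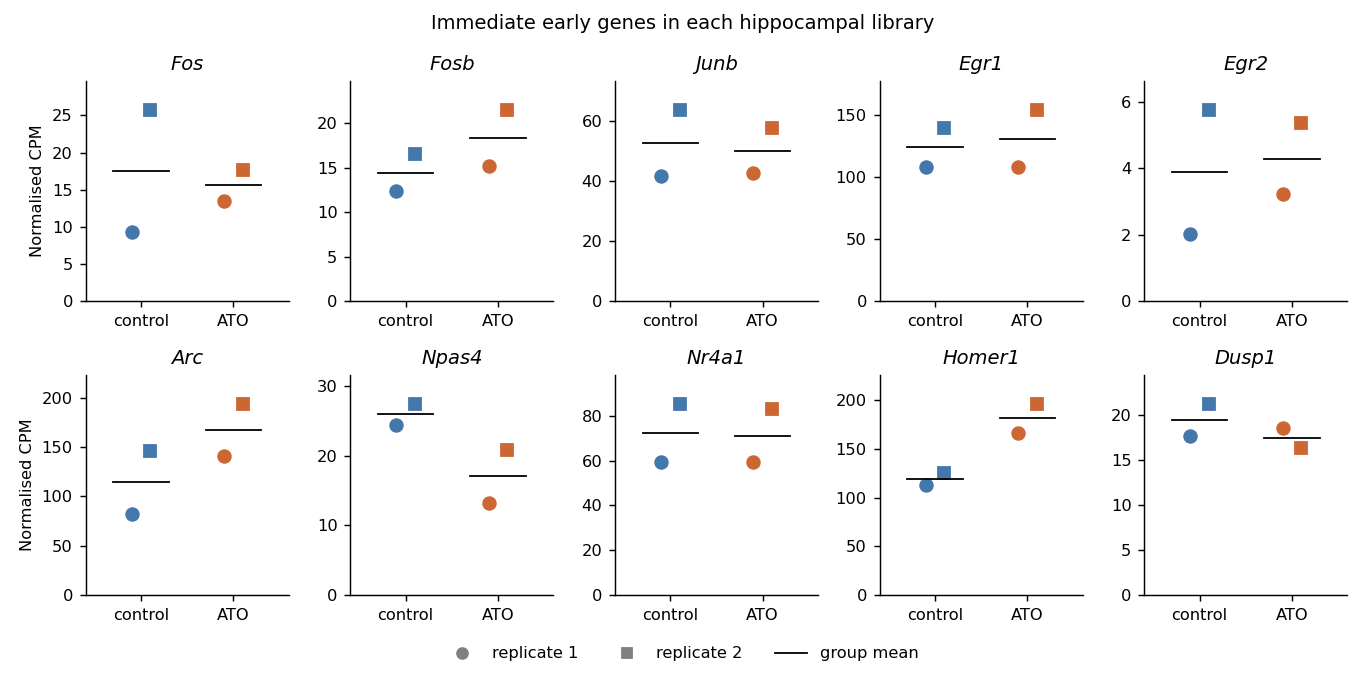
Normalised CPM of the 10 genes in each library, on axes that start at 0, with circles for replicate 1, squares for replicate 2 and a line at each group's mean. The ATO points lie above both controls for Homer1 and below both for Npas4, and the groups overlap for the other 8 genes.

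Homer1 and Arc, whose products act at the synapse, had the highest estimates of the 10. Homer1 (ENSMUSG00000007617, chromosome 13 from 93299635 to 93405129, plus strand, GRCm38) encodes a scaffold that ties group I metabotropic glutamate receptors to Shank proteins and to calcium stores. Its counts were 1671 and 1898 in control and 2892 and 3265 in ATO, or 113 and 126 normalised CPM against 166 and 197. Both ATO libraries thus stood above both controls, and the gap between the groups was wider than that within either. The mean went from 120 ± 8.72 to 181 ± 21.6 CPM (SD, n = 2 per group), a 1.52-fold rise with a log2 fold change of 0.60 ± 0.09 (SE, 95% interval 0.41 to 0.79, edgeR adjusted p = 0.00147). The authors' deposited table gives a log2 fold change of 0.60 and an adjusted p of 0.00173 for it, without its mark for differential expression, which none of the 10 carried. The same authors' deposited table gives -0.63 (adjusted p = 0.0621) for Npas4 and 0.59 (adjusted p = 0.120) for Arc. The call held when each library was left out, with log2 fold changes from 0.47 to 0.72 and adjusted p up to 0.0234.

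The activity-induced product of this gene is Homer1a, a short form that lacks the coiled coil and competes with the constitutive long forms. The GENCODE vM21 annotation lists 11 coding transcripts of Homer1, of which 4 end more than 10 kb before the last annotated end. The deposited count sums all of them, so the rise cannot be assigned to the short or the long forms. Both annotated genes that overlap Homer1 lie on the same strand and were not analysed here.

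Arc (ENSMUSG00000022602, chromosome 15 from 74669083 to 74672570, minus strand) encodes a protein that travels to active dendrites and promotes the internalisation of AMPA receptors. It had 1212 and 2204 counts in control and 2450 and 3223 in ATO, which are 82.2 and 146 CPM against 141 and 194. ATO replicate 1 lay below control replicate 2, so the groups overlapped. The log2 fold change was 0.55 ± 0.19 (95% interval 0.15 to 0.96) and did not pass (edgeR adjusted p = 0.132). The value rested on control replicate 1, the lowest library: it was 0.20 without that library (adjusted p = 0.481) and 1.02 without control replicate 2 (adjusted p = 0.00767). It was 0.77 without ATO replicate 1 (adjusted p = 8.96e-09) and 0.30 without ATO replicate 2 (adjusted p = 0.148).

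Npas4, a transcription factor that is induced in neurons almost only by depolarisation and calcium and that organises inhibitory synapses, had the lowest estimate. Npas4 (ENSMUSG00000045903, chromosome 19 from 4984355 to 4990316, minus strand) had 360 and 415 counts in control and 231 and 347 in ATO. These are 24.4 and 27.5 CPM in control and 13.3 and 20.9 CPM in ATO. Both ATO libraries were below both controls, but ATO replicate 2 lay nearer to the lower control than to ATO replicate 1. The log2 fold change was -0.61 ± 0.17 (95% interval -0.97 to -0.25, 25.95 ± 2.16 against 17.1 ± 5.39 CPM, n = 2), and it missed the threshold in edgeR (adjusted p = 0.0607). It passed in limma-voom (adjusted p = 0.0490) and did not in DESeq2's Wald test (adjusted p = 0.106). Without ATO replicate 1 it was -0.31 (adjusted p = 0.477), and without ATO replicate 2 it was -0.97 (adjusted p = 1.02e-05).

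**Figure D2:**
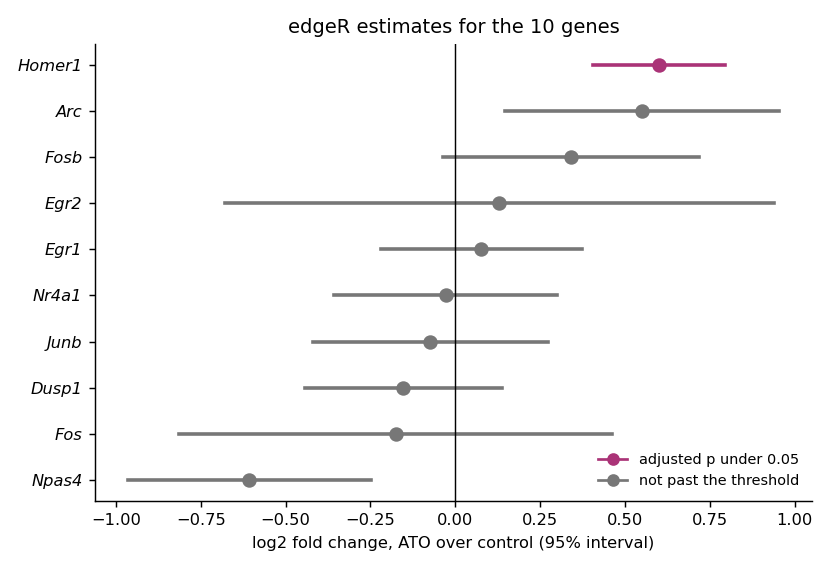
Log2 fold changes of ATO over control from edgeR for the 10 genes, ordered by size, with 95% intervals as bars. The interval of Homer1 runs from 0.41 to 0.79, those of Arc and Npas4 exclude 0 although neither gene passed after adjustment over all genes, and those of the other 7 include 0.

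The AP-1 genes Fos, Fosb and Junb did not pass. Fos (ENSMUSG00000021250, chromosome 12 from 85473890 to 85477273, plus strand), the usual marker of active neurons, had 138 and 389 counts in control and 235 and 294 in ATO. In CPM these were 9.36 and 25.8 against 13.5 and 17.7, so both ATO libraries lay between the controls. The log2 fold change was -0.18 ± 0.30, with a 95% interval from -0.81 to 0.46 (edgeR adjusted p = 0.811). Its sign depended on which control was kept. It was -0.72 without control replicate 1 (adjusted p = 0.0426) and 0.73 without control replicate 2 (adjusted p = 0.132), and it was 0.01 without ATO replicate 1.

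Fosb (ENSMUSG00000003545, chromosome 7 from 19302696 to 19310051, minus strand), whose truncated product accumulates with repeated stimulation, had 183 and 249 counts in control and 265 and 357 in ATO. Its CPM were 12.4 and 16.5 in control and 15.2 and 21.5 in ATO, and the groups overlapped. The log2 fold change was 0.34 ± 0.18 (95% interval -0.04 to 0.72, edgeR adjusted p = 0.332) and kept its sign in each fit without a library, between 0.07 and 0.57.

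Junb (ENSMUSG00000052837, chromosome 8 from 84974484 to 84978718, minus strand), a partner of the Fos proteins in AP-1, was counted 617 and 965 times in control and 747 and 959 times in ATO. Both groups spanned nearly the same range, 41.9 and 63.9 CPM in control and 42.9 and 57.7 in ATO. Its log2 fold change of -0.07 ± 0.16 (95% interval -0.42 to 0.27) did not pass (edgeR adjusted p = 0.861), and it was 0.26 without control replicate 2 and 0.13 without ATO replicate 1. Junb overlaps the peroxiredoxin gene Prdx2 on the other strand, and no source used here says if the counting took strand into account, so their reads may not be separated.

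The zinc finger factor genes Egr1 and Egr2 and the orphan nuclear receptor gene Nr4a1 did not pass either. Egr1 (ENSMUSG00000038418, chromosome 18 from 34859823 to 34864984, plus strand), which is needed for the late phase of long-term potentiation, had 1597 and 2107 counts in control and 1874 and 2558 in ATO. The corresponding values were 108 and 140 CPM in control and 107.6 and 154 in ATO, so the lowest and the highest library were both of the ATO group. The log2 fold change was 0.08 ± 0.14 (95% interval -0.22 to 0.37, edgeR adjusted p = 0.826), and it was -0.09 without control replicate 1 and -0.20 without ATO replicate 2.

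Egr2 (ENSMUSG00000037868, chromosome 10 from 67535475 to 67542188, plus strand), known from Schwann cell and hindbrain development as well as from activity, was the least counted of the 10. It had 30 and 87 counts in control and 56 and 89 in ATO, or 2.03 and 5.76 CPM against 3.21 and 5.36. The ATO values lay between the controls. The 95% interval of its log2 fold change of 0.13 ± 0.38 ran from -0.68 to 0.94 (edgeR adjusted p = 0.900), which is a fold of 0.624 to 1.92 and the widest interval of the 10. It was -0.43 without control replicate 1 and 1.06 without control replicate 2.

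Nr4a1 (ENSMUSG00000023034, chromosome 15 from 101254269 to 101274795, plus strand), which regulates synapse number and metabolism, had the estimate nearest to 0. It had 877 and 1291 counts in control and 1033 and 1379 in ATO, that is 59.5 and 85.5 CPM against 59.3 and 83.02. The groups nearly coincided, with a log2 fold change of -0.03 ± 0.15 (95% interval -0.36 to 0.30, edgeR adjusted p = 0.947). Its sign turned without control replicate 2 (0.25) and without ATO replicate 1 (0.20).

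Dusp1, a phosphatase that switches off MAP kinases and is induced by activity, stress and glucocorticoids, did not pass. Dusp1 (ENSMUSG00000024190, chromosome 17 from 26505590 to 26562128, minus strand) had 260 and 321 counts in control and 324 and 272 in ATO. In CPM the controls were at 17.6 and 21.3 and the ATO libraries at 18.6 and 16.4, so the groups overlapped. The log2 fold change of -0.15 ± 0.14 (95% interval -0.44 to 0.14) had an edgeR adjusted p of 0.609. It ran from -0.28 without control replicate 1 to -0.02 without control replicate 2. The annotated span of Dusp1 overlaps Ergic1 and the pseudogene Gm8225 on the other strand. It also overlaps AC122252.1 and the pseudogene AC122252.4 on its own strand, so reads of these genes may not be separated.

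The 10 genes varied together within each group. Control replicate 2 was above control replicate 1 for all 10 genes, and ATO replicate 2 was above ATO replicate 1 for 9 of them, all but Dusp1. Over all genes these shares were 50.2% and 51.4%, and both held for 28.6% of genes. Among the 34 other rapidly induced genes described below the shares were 73.5% and 76.5%, and both held for 61.8%. Both held for 61.1% of the 18 choroid plexus markers. For the 10 genes the median log2 difference of replicate 2 over replicate 1 was 0.46 in control and 0.47 in ATO. Over all genes the median size of that difference, in either direction, was 0.15 in control and 0.12 in ATO. The numbers only name libraries here and give them no order.

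The within-group gaps were widest for Fos and Egr2 among the controls. Control replicate 2 had 2.75 times the Fos level of control replicate 1 (exact binomial 95% interval 2.26 to 3.37, counting error only) and 2.83 times its Egr2 level (interval 1.85 to 4.44). Arc differed 1.78-fold between the controls (interval 1.65 to 1.91) and 1.38-fold between the ATO libraries (interval 1.31 to 1.45). Homer1 differed 1.11-fold between the controls, the smallest gap of the 10 there, and 1.18-fold between the ATO libraries, where only the gap of Dusp1 was smaller. In each group the interval excluded 1 for 9 of the 10 genes, Npas4 being the exception in control and Dusp1 in ATO. Over all genes it excluded 1 for 28.99% in control and 24.5% in ATO, a share that also depends on how many counts a gene has. For 9 of the 10 genes the estimated difference between the groups was smaller than the gap within at least 1 group, which was so for 64.4% of all genes, and Homer1 was the exception.

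**Figure D3:**
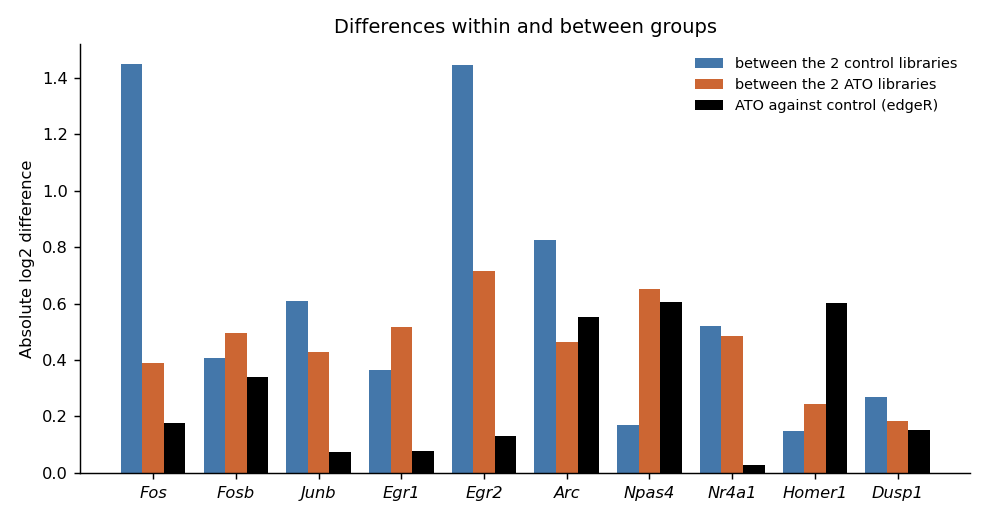
Absolute log2 differences between the 2 control libraries, between the 2 ATO libraries and between the groups (edgeR) for each of the 10 genes. The control gap of Fos and of Egr2 is 1.45, larger than any group difference, and only for Homer1 is the group difference (0.60) larger than both gaps.

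After centring each gene on its own mean over the 4 libraries, the mean of the 10 genes stood at -0.36 in control replicate 1, 0.26 in control replicate 2, -0.16 in ATO replicate 1 and 0.26 in ATO replicate 2 (log2 CPM). Of the 10 genes, 1 was above its own mean in control replicate 1 (Npas4), 9 in control replicate 2, 3 in ATO replicate 1 and 9 in ATO replicate 2. Among 13660 other genes with a mean of at least 1 CPM, predicted genes left out, the nuclear receptor gene Nr4a2, itself an immediate early gene of the family of Nr4a1, had the profile nearest to this mean. Its root mean square difference over the 4 libraries was 0.02 log2 units. The next were Sap25, Pard6b, Ttc7 and Cd109, at 0.02 to 0.05. Likeness over 4 libraries is a description, and none of these 5 genes passed the test of ATO against control (edgeR adjusted p from 0.872 to 0.914).

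**Figure D4:**
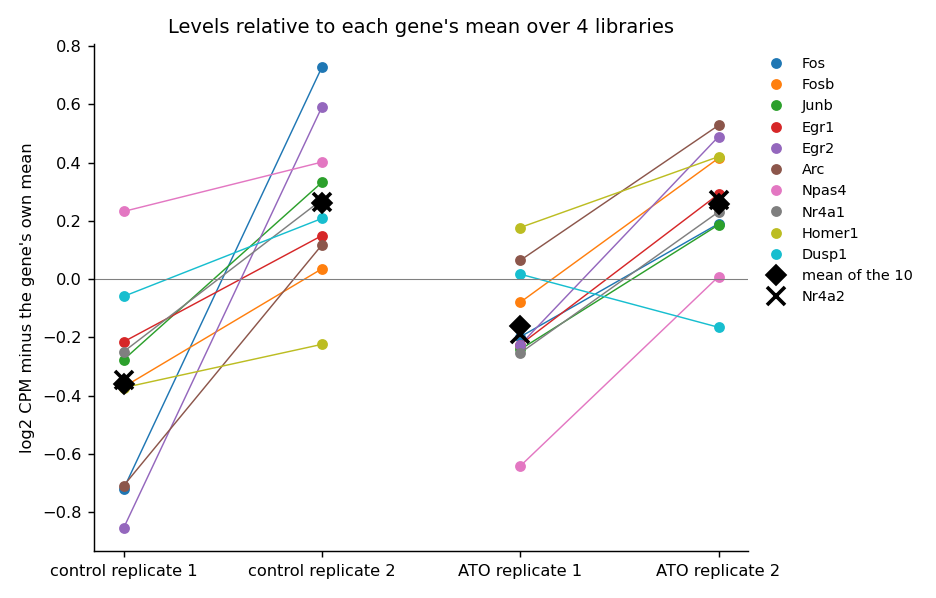
Log2 CPM of each gene minus its own mean over the 4 libraries, with lines joining the libraries of a group, diamonds for the mean of the 10 genes and crosses for Nr4a2. Replicate 2 of each group stands at 0.26 on average and replicate 1 at -0.36 and -0.16, while Npas4 has its own higher values in the 2 controls and Homer1 in the 2 ATO libraries.

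Ratios between members within a library remove what the genes of a library share, and were computed after the values had been seen. The ratio of Npas4 to each of the other 9 genes was lower in both ATO libraries than in both controls for 8 of the 9, the exception being the ratio to Fos. The ratio of Npas4 to any other gene in the table was lower in this way for 78.5% of genes. Against Arc the log2 ratio of counts was -1.75 and -2.41 in control and -3.41 and -3.22 in ATO. Against Egr1 it was -2.15 and -2.34 in control and -3.02 and -2.88 in ATO. The group differences of these log2 ratios ran from -1.24 against Homer1 to -0.49 against Dusp1. Each such difference is the log2 change of Npas4 less that of the other gene. Npas4 had the lowest change of the members, so every difference had to be negative, and the signs add nothing to its own estimate. The ratio of Homer1 to the other members was higher in both ATO libraries for 6 of 9, against 84.6% of all genes. Its ratio to Arc was 0.46 and -0.22 in control and 0.24 and 0.02 in ATO, with overlapping groups.

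Other rapidly induced genes gave more upward than downward estimates, but few passed. Of 34 tested, 2 rose and 0 fell, and 24 had a positive log2 fold change, with a list median of 0.17 against 0.00 over all genes. Over all 15713 genes 2.87% rose, 0.859% fell and 7701 had a positive log2 fold change. The ATO libraries were above both controls for 18 of the 34 (24.8% of all genes) and below both for 4 (23.4%). Dusp5, which encodes a nuclear phosphatase of ERK, rose from 16.5 and 18.9 to 25.4 and 29.6 CPM (log2 0.63 ± 0.13, edgeR adjusted p = 0.0128). Klf2, a zinc finger factor of neurons and endothelium, rose from 9.43 and 10.99 to 15.2 and 17.4 CPM (log2 0.67 ± 0.15, edgeR adjusted p = 0.0264). Maff, a small Maf factor, was at 1.48 ± 0.39 (edgeR adjusted p = 0.0510) and Jun, the AP-1 partner of Fos, at 0.27 ± 0.07 (edgeR adjusted p = 0.0593). The count of 2 became 0 without either control replicate 1 or ATO replicate 2, and 4 without ATO replicate 1. It became 1 without control replicate 2, and 1 by DESeq2. The count that fell became 1 without ATO replicate 2. The gap within groups was smaller for this list than for the 10 genes, with a median size of 0.20 in control and 0.18 in ATO on the log2 scale.

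Genes induced by activity with slower kinetics moved in both directions. Of 20 tested, 3 rose and 1 fell, with a median of 0.04. By the same test 2.87% of all genes rose and 0.859% fell. Inhba, the activin subunit gene, rose from 13.4 and 12.3 to 18.6 and 19.7 CPM (log2 0.58 ± 0.13, edgeR adjusted p = 0.0284). Spred1, an inhibitor of Ras signalling, rose by log2 0.34 ± 0.08 (edgeR adjusted p = 0.0353), and Nfil3, a bZIP repressor, by 0.66 ± 0.17 (edgeR adjusted p = 0.0481). Sorcs3, a sorting receptor of postsynaptic sites, fell from 36.8 and 45.2 to 28.6 and 31.5 CPM (log2 -0.45 ± 0.11, edgeR adjusted p = 0.0445). The 3 that rose became 1 when either control replicate 1 or ATO replicate 2 was omitted, and 1 by DESeq2. Inhba passed in 1 of the 4 fits that left out a library, the one without ATO replicate 1, and Spred1 and Nfil3 in 2 each. Without control replicate 2 neither Inhba (adjusted p = 0.144) nor Spred1 (adjusted p = 0.188) passed, and Nfil3 did (adjusted p = 0.0236). Sorcs3 did not pass when control replicate 2 (adjusted p = 0.275) or ATO replicate 1 (adjusted p = 0.173) was omitted, under scaling by library size alone (adjusted p = 0.0562) or by DESeq2 (adjusted p = 0.0975).

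Upstream of these genes, 1 of 36 passed, against 3.73% of all genes. All 5 genes of calcium entry channels had negative estimates, from -0.26 to -0.07, and 0 passed. Estimates were negative for 8012 of all 15713 genes. Grin2b, an NMDA receptor subunit, was lowest by p at -0.26 ± 0.07 (edgeR adjusted p = 0.0738), followed by the L-type channel gene Cacna1d at -0.26 ± 0.11 (edgeR adjusted p = 0.250). In edgeR 2 of the 5 had an unadjusted p under 0.05, and without ATO replicate 1 the count that fell was 1. Of 15 kinases and calcineurin subunits 0 passed in edgeR and 1 reached an unadjusted p under 0.05. The share of all genes with such a p was 18.1%. The smallest p were those of the ribosomal S6 kinase gene Rps6ka2 (0.24 ± 0.09, edgeR adjusted p = 0.191) and the ERK1 gene Mapk3 (0.11 ± 0.07, edgeR adjusted p = 0.467).

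Among 16 transcription factors and coactivators 14 had positive estimates and 1 passed. Over all 15713 genes, 7701 had positive estimates and 3.73% passed. Creb1, the CREB gene, rose from 52.6 and 46.6 to 72.4 and 61.8 CPM (log2 0.44 ± 0.10, edgeR adjusted p = 0.0258). Creb1 did not pass when control replicate 2 (adjusted p = 0.184) or ATO replicate 1 (adjusted p = 0.218) was omitted. Without control replicate 1 the count was 2, as it was with a minimum of 5 CPM. Srf, the serum response factor gene, was at 0.34 ± 0.09 (edgeR adjusted p = 0.0517). Of 21 partners and substrates of the members' proteins 0 passed in edgeR, where 3.73% of all genes did. An unadjusted p under 0.05 was reached by 7 of the 21, against 18.1% of all genes. Without control replicate 1 the count that rose was 2. The smallest p was that of the endophilin gene Sh3gl1, whose product binds Arc (0.34 ± 0.09, edgeR adjusted p = 0.0567).

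**Figure D5:**
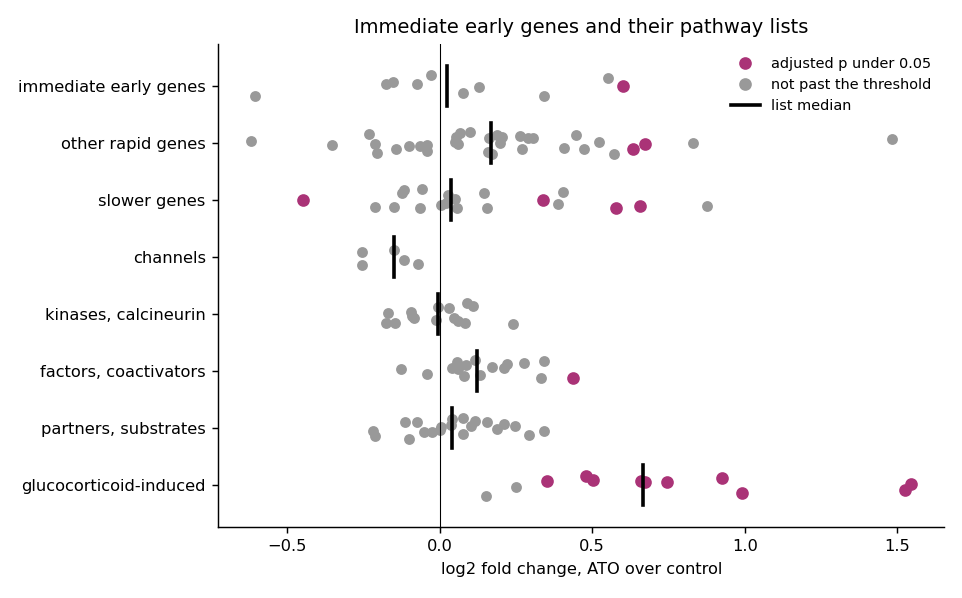
Log2 fold changes of ATO over control for the 10 immediate early genes and 7 pathway lists, with each point a gene, purple where it passed and grey where it did not, and a bar at the list median. The medians lie between -0.15 and 0.17 except for the glucocorticoid-induced genes, at 0.67.

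Dusp1 and Per1, which are induced by glucocorticoids as well as by activity, did not pass. Of 12 other glucocorticoid-induced genes, a list chosen with earlier results of these data known, 10 rose and 0 fell, where 2.87% of all genes rose. The list median was a log2 fold change of 0.67, and the smallest p were those of Tsc22d3 (0.99 ± 0.08), Cdkn1a (1.52 ± 0.18), Sgk1 (0.75 ± 0.09) and Plin4 (1.55 ± 0.20), with edgeR adjusted p from 2.84e-06 to 0.000472. Dusp1 was at -0.15 ± 0.14, as above, and the clock gene Per1 at 0.20 ± 0.09 (edgeR adjusted p = 0.274, unadjusted p = 0.0491). Per1 had 60.6 and 73.8 CPM in control and 76.4 and 78.4 in ATO, so both ATO libraries were above both controls. That held for 24.8% of all genes. The difference between Dusp1 or Per1 and the list was not tested.

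Markers of some neuronal classes in which these genes are induced also differed between the libraries. CA3 markers had positive estimates for 3 of 6, and 0 passed. They summed to 569 and 559 CPM in control and 579 and 547 in ATO. Over all genes 2.87% rose and 0.859% fell. CA1 markers had negative estimates for 6 of 6, of which 3 fell, and summed to 704 and 692 CPM in control and 472 and 627 in ATO. Dentate gyrus markers had positive estimates for 9 of 10, of which 2 rose, and summed to 748 and 641 CPM in control and 873 and 778 in ATO. Interneuron markers were negative for 7 of 8, of which 1 fell, and summed to 853 and 926 CPM in control and 749 and 803 in ATO. None of the CA1, dentate gyrus and interneuron markers was at 0 in any library. Their part in the values of Homer1, Npas4 and Arc was not tested.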

How the data were processed

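The members and gene lists were chosen with earlier results of these data known. Per the file headers the authors deposited read counts and FPKM for each library, with their log2 fold change, p-value and adjusted p-value. Per the submitters' processing notes the genome was GRCm38 and the tools included HTSeq 0.6.1, HISAT2 2.0.1, limma 3.47.15, R 4.1.0, cutadapt 1.9.1 and FastQC 0.10.1, with no settings or strand option stated. Every deposited gene was over 1 CPM in at least 2 libraries.

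From the counts of all 4 libraries, edgeR 4.0.16 (R 4.3.3) computed TMM factors, which ran from 0.994 to 1.01, and a quasi-likelihood test without covariates. Its filterByExpr step removed 0 genes. SE is the log2 fold change over the square root of F. Log2 CPM used a prior count of 2. Alternatives used DESeq2 1.42.0, limma-voom (limma 3.58.1), other scalings and filters, a replicate block and leaving out each library; the test was tried on simulated data. Positions are from GENCODE vM21 (GRCm38). In each of 7 lists with 125 entries (123 tested, Fosl1 and Dusp2 not analysed here) the text names the genes called, up to 4, or else the 2 smallest p, of which 1 is not reported here; further genes were chosen after their values were seen.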

Additional observations from a re-analysis of the deposited data

How the results depend on the processing

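The rise of Homer1 passed under all 11 alternatives tried. With DESeq2's Wald test 252 genes were higher and 64 lower, and with the replicate block 890 and 476. Leaving out each library gave 180 to 443 genes higher and 42 to 168 lower, 1 to 2 of the 10 immediate early genes higher and 0 to 1 lower, and 10 to 16 pathway genes higher and 0 to 2 lower. Among the 10 genes 1 was lower in limma-voom. Among pathway genes 0 were lower by DESeq2, and 0 under scaling by library size alone, against 1. Without each library in turn, log2 fold changes ran from -0.72 to 0.73 for Fos, -0.34 to 0.26 for Junb, -0.20 to 0.31 for Egr1, -0.43 to 1.06 for Egr2, 0.20 to 1.02 for Arc, -0.97 to -0.31 for Npas4 and -0.29 to 0.25 for Nr4a1. Fits without 1 library rest on the spread of the other group's 2 libraries and assume that the lone library varies alike. In those without an ATO library edgeR also gave genes of similar level 1 shared spread, so their smallest p are less reliable. Npas4 was at -0.64 in limma-voom. The cause of these changes was not tested.

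The labels give both groups replicates 1 and 2 without saying what a number shares. Over all genes, deviations of same-numbered libraries from their group means correlated at 0.0877, and with 2 pairs this does not establish pairing. With the replicate number as a block Arc passed (0.58, adjusted p = 1.15e-05), Npas4 passed (-0.62, adjusted p = 0.00238), Homer1 passed, 2 of the 10 genes were higher and 1 lower, and 25 pathway genes were higher and 4 lower. Among these were 7 other rapidly induced genes higher and 1 lower, 1 partner or substrate higher and 1 lower, and 1 channel gene lower. With so few libraries the block leaves little information on each gene's own spread. The p-values of that fit are therefore less reliable. Egr2 has no value with the minimum of 5 CPM.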
